A study of Mus musculus with 4 samples.

Results

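The proteasome subunit genes were taken as all rows of the deposited table whose symbol is Psm, a letter from a to g and a number. The rule found 48 genes among the 55335 rows. In all, 46 of them reached a mean of 1 CPM (reads of a gene per 1000000 reads in genes) and were tested, among 13019 tested genes. The 48 comprised 14 genes of the standard core particle, 3 genes of the immunoproteasome, 2 core genes known from other tissues (Psma8 and Psmb11, both averaging under 1 CPM), 17 genes of the base and lid of the regulatory particle, 5 genes of core activators and of the regulator PI31, and 7 genes of assembly chaperones.

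The proteasome is the main protease of the cytosol and nucleus, and it degrades proteins tagged with ubiquitin. Its core is a barrel of alpha and beta rings with the proteolytic sites on 3 of the beta subunits, and the regulatory particle at its ends binds, unfolds and threads in the tagged protein. Interferon-gamma induces 3 alternative catalytic subunits that build the immunoproteasome, which is known for making peptides for display on MHC class I, and the transcription factors NFE2L1, NFE2L2 and NF-Y are known to act on subunit genes.

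RNA was compared between sorted fractions of cells from the corpus of the stomach. The mice were C57BL/6, 6 to 8 weeks old, and all carried Iqgap3-2A-tdTomato, a red reporter made from the locus of the scaffold protein gene Iqgap3, and all sorted cells were alive and carried the epithelial surface protein EpCAM. IQ3pos cells were high for the reporter (libraries IQ3pos_1909A, a pool of 3 mice, and IQ3pos_1910A, a pool of 4 mice), and IQ3neg cells were low or negative for it (IQ3neg_1909B, 3 mice, and IQ3neg_1910B, 4 mice). Each library is 1 SMART-Seq2 preparation, a PCR-amplified full-length cDNA method for few cells, so p-values measure the spread between pooled libraries, part of which may be technical. Wherever a pair of values is given for a fraction, the library from 3 mice precedes the library from 4 mice.

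The libraries held from 90714929 to 418401262 reads in genes. The 20 most abundant genes took 25.3% and 18.5% of reads in IQ3pos and 63.4% and 57.9% in IQ3neg. CPM are shares of a library, and the median difference of all tested genes was 0.68 (IQ3pos minus IQ3neg, in log2(CPM + 1)), and 0.043 after TMM scaling, which corrects for such a few abundant genes. Iqgap3, the gene behind the sort, stood at 0.220 and 9.32 CPM in IQ3pos, against 0.0435 and 0.452 CPM in IQ3neg, so that the library labelled IQ3pos_1909A lay below IQ3neg_1910B. Values without each library are therefore given for the results on all subunit genes. In bulk libraries, fewer cells of a type and less RNA per cell cannot be told apart. All 5 markers of dividing cells were higher in both IQ3pos libraries (summed 989 and 2366 CPM in IQ3pos, against 85.9 and 177 CPM in IQ3neg), as were all 4 of pit cells (summed 9538 and 9754 CPM in IQ3pos, against 1015 and 1364 CPM in IQ3neg). The parietal cell markers Atp4a and Atp4b were higher too (summed 3938 and 2925 CPM in IQ3pos, against 424 and 495 CPM in IQ3neg), as was the mucous neck cell marker Tff2 (4236 and 5492 CPM in IQ3pos, against 415 and 596 CPM in IQ3neg), while Muc6 of the same cells overlapped. All 4 markers of chief cells were lower in both IQ3pos libraries (summed 50844 and 19487 CPM in IQ3pos, against 414587 and 403347 CPM in IQ3neg), as were all 5 of enteroendocrine cells (summed 360.2 and 175 CPM in IQ3pos, against 16173 and 10178 CPM in IQ3neg). The 4 tuft cell markers summed to 479 and 113 CPM in IQ3pos, against 326 and 929 CPM in IQ3neg, and the 6 of fibroblasts and endothelium to 1.66 and 0.233 CPM in IQ3pos, against 28.4 and 1.499 CPM in IQ3neg. The 4 epithelial markers summed to 3165 and 4408 CPM in IQ3pos, against 1212 and 2731 CPM in IQ3neg, and Epcam itself stood at 473 and 517 CPM in IQ3pos, against 205 and 266 CPM in IQ3neg. The part of cell type in the results was not tested.

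Stretches before the start sites of 6 subunit genes are shown because they hold, or lack, letters of the motifs through which those factors are known to act. They were read from RefSeq's promoter table (GRCm38.p6), 5′ to 3′ on the gene's strand, and bases within any annotated exon were left out. Capitals mark a match to the antioxidant response element core TGACNNNGC (Psmb5 and Psmb6) or to the NF-Y box CCAAT, read as ATTGG on the opposite strand (Psmb3, Psma1 and Psme3). Psmb5 and Psmb6 encode catalytic subunits, and Psma1 and Psmb3 had the largest differences of their classes. Psme3 and Psme4 mark the top and the bottom of the whole list of differences. The Psme4 stretch has no capitals, but only its first 51 of 100 bases are shown, against all 100 for Psme3. The stretches lie at chr14:54618023-54618095 (minus strand), chr11:70525257-70525356, chr11:97703334-97703398, chr7:114276119-114276216 (minus strand), chr11:101316113-101316212 and chr11:30771675-30771725.
Psmb5: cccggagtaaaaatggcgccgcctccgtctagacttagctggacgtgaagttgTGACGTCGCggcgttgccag
Psmb6: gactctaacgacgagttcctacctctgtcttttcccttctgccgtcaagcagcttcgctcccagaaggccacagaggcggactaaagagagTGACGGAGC
Psmb3: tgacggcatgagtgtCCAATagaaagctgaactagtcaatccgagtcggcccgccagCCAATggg
Psma1: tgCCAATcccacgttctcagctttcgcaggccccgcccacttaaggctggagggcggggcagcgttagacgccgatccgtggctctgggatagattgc
Psme3: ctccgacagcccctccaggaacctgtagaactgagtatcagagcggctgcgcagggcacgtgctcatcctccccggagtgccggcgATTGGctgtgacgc
Psme4: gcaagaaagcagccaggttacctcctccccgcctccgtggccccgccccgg

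Over windows of 300 bases around the start, which 40 of the 48 genes have in the table, the antioxidant and NF-Y motifs were about as common as in all 27025 genes. TGACNNNGC stood in 6 of 40 windows (15%), against 14% of all, and CCAAT in 14 (35%), against 41.1%. A match in Psme4 lies across its start site and is outside the stretch shown. Of the interferon-linked motifs, the interferon response element (a pair of GAAA set 2 bases apart) stood in 5 of 40 (12.5%), against 3.99% of all windows, and TTCNNNGAA in 3 (7.5%), against 9.55%. All motifs were searched on both strands. No immunoproteasome gene had a match to the interferon response element, and Psmb8 had one to TTCNNNGAA. A match is a string of letters and not a measured site.

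Proteasome RNA as a whole was higher in IQ3pos. The 48 genes summed to 8708 and 11173 CPM in IQ3pos, against 3220.2 and 4251 CPM in IQ3neg, 2.66-fold in CPM and 1.57-fold after TMM scaling. Both IQ3pos libraries lay above both IQ3neg libraries. The median log2 difference of the 46 tested genes was 1.44, or 0.76 above the median of all genes, and after TMM scaling it was 0.69, or 0.64 above. Against only the genes averaging 5 CPM or more, it lay 0.58 above in CPM. With TMM scaling of those genes, a setting added after seeing the data, it lay 0.54 above. The fitted difference was positive for 45 of 46 genes in CPM, against 8725 of all 13019, and for 41 after TMM scaling, against 6668. Without IQ3pos_1909A, IQ3pos_1910A, IQ3neg_1909B and IQ3neg_1910B in turn, the median lay 0.86, 0.74, 0.68 and 0.74 above that of all genes.

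By limma on log2(CPM + 1), no subunit gene and no other gene reached an adjusted p of 0.05 (0% higher and 0% lower of the 13019 genes). The lowest adjusted p by limma was 0.0542 over all genes. With p under 0.05 before adjustment, limma gave 32 of 46 subunit genes as higher and 0 as lower, against 18.2% and 4.98% of all genes. After TMM scaling, limma gave 17 as higher and 0 as lower at an unadjusted p, against 7.63% and 8.32% of all genes. Adjusted calls were 0 of 46 in limma on TMM-scaled CPM (0.0461% of all genes higher and 0.184% lower) and 0 of 46 in edgeR's quasi-likelihood test on the recovered reads (0.0535% higher and 0.214% lower).

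Fractions that do not overlap were counted as well. Both IQ3pos libraries lay above both IQ3neg libraries for 40 of 46 genes in CPM, against 40.9% of all tested genes, and for 30 of 46 after TMM scaling, against 24.7%. The reverse order was seen for 0 of 46 on either scale, against 14.2% of all in CPM and 23% after TMM scaling. The 6 genes whose groups overlapped in CPM were Psmb5, Psmb8, Psmd2, Psmd9, Psme4 and Psmf1. Calls depended on the filter on low values, among other settings. Among the 8805 genes that averaged 5 CPM or more, limma called 15 subunit genes higher and 0 lower (adjusted p under 0.05), against 7.83% and 1.06% of those genes. Once these values were TMM-scaled, limma called 0 of 46 higher, against 0.727% of the 8805 genes. The 15 were Psma1, Psma2, Psma4, Psma5, Psma6, Psmb1, Psmb3, Psmb6, Psmc2, Psmc3, Psmc6, Psmd4, Psmd14, Psme2 and Psmg1, so 8 of the 14 genes of the standard core, 5 of the 17 of the regulatory particle and 0 of the 3 of the immunoproteasome.

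**Figure D1:**
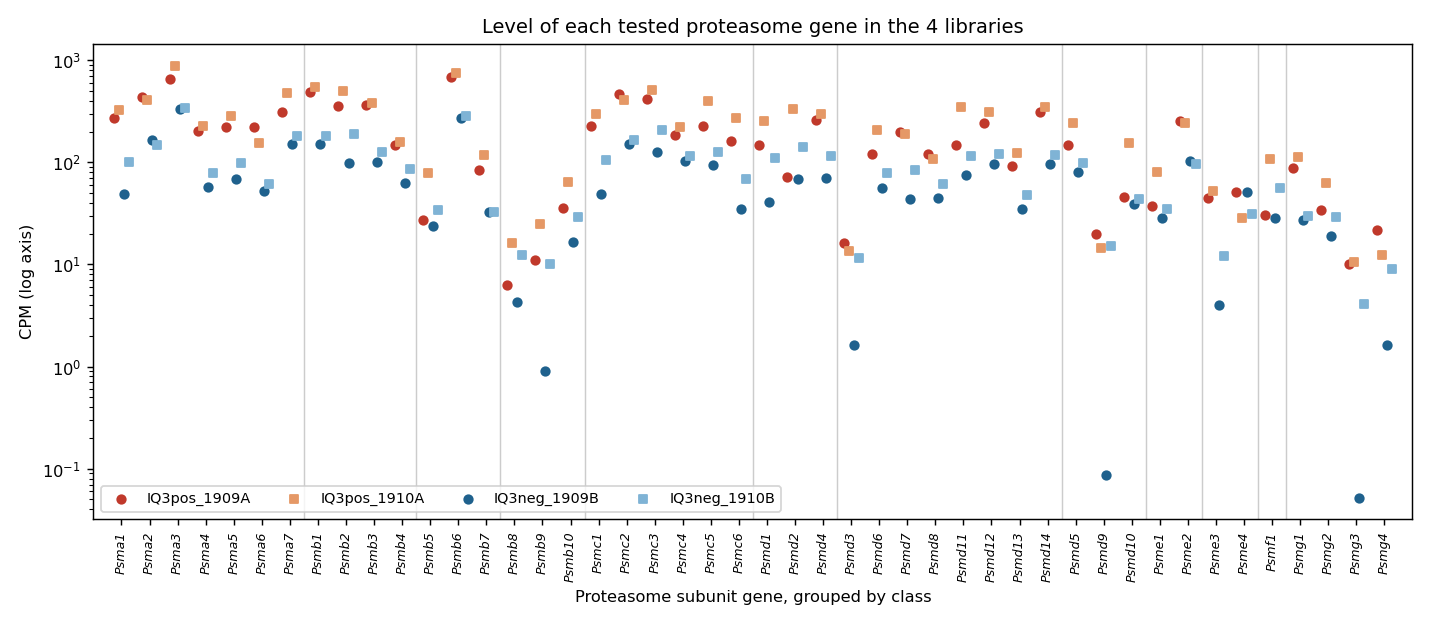
CPM (log axis) of each of the 46 tested subunit genes in the 4 libraries, grouped by class, with IQ3pos libraries in red and orange and IQ3neg libraries in dark and light blue. IQ3pos points lie above IQ3neg points for 40 of 46 genes, and 5 genes drop below 2 CPM in IQ3neg_1909B.

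Nearly all genes of the standard core were separated between the fractions. Its 14 genes had a median log2 difference of 1.59, or 0.92 above all genes and 0.79 above after TMM scaling, and 13 of them were higher in both IQ3pos libraries on either scale, against 40.9% of all genes in CPM and 24.7% after TMM scaling. Summed, they stood at 4460.3 and 5301 CPM in IQ3pos, against 1623 and 1948 CPM in IQ3neg.

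All 7 alpha genes, which form the outer rings and the gate of the core, were higher in both IQ3pos libraries, with log2 differences from 1.16 to 2.07. Psma1 (chr7:114264606-114276118) was at the top of that range. It stood at 274 and 325 CPM in IQ3pos, against 49.3 and 101 CPM in IQ3neg, for a log2 difference of 2.07 with an SE of 0.425 (adjusted p = 0.0757 by limma), and IQ3neg_1909B was the lowest library. Psma3, the most abundant of the alpha genes in CPM, had the smallest difference, 649 and 886 CPM in IQ3pos, against 335 and 343 CPM in IQ3neg, for a log2 difference of 1.16 with an SE of 0.274 (adjusted p = 0.0933 by limma). Its IQ3neg libraries were almost equal, and the 2 fractions did not overlap.

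The 4 structural beta genes of the inner rings were higher in both IQ3pos libraries as well, with log2 differences between 1.06 and 1.71. Psmb3 stood at 366 and 381 CPM in IQ3pos, against 102 and 127 CPM in IQ3neg, for a log2 difference of 1.71 with an SE of 0.287 (adjusted p = 0.0659 by limma), and the IQ3pos libraries differed by far less than the fractions did. Psmb4 was the lowest of the 4, at 149 and 158 CPM in IQ3pos, against 62.4 and 85.2 CPM in IQ3neg, for a log2 difference of 1.06 with an SE of 0.338 (adjusted p = 0.149 by limma). Psmb1 (1.62) and Psmb3 were the subunit genes that limma called with a pseudocount of 5 in place of 1, where 1.84% of all genes were called higher.

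Among the catalytic beta genes, Psmb6 and Psmb7 were higher in IQ3pos and Psmb5 was not separated. Psmb6 (chr11:70525367-70527858), which carries the caspase-like site, stood at 680.5 and 758 CPM in IQ3pos, against 273 and 286 CPM in IQ3neg, for a log2 difference of 1.36 with an SE of 0.247 (adjusted p = 0.0666 by limma). Psmb7, with the trypsin-like site, stood at 85.01 and 119 CPM in IQ3pos, against 32.8 and 32.7 CPM in IQ3neg, for a log2 difference of 1.59 with an SE of 0.394 (adjusted p = 0.101 by limma). Psmb5 (chr14:54614119-54618022), with the chymotrypsin-like site, stood at 27.04 and 78.1 CPM in IQ3pos, against 24.01 and 33.9 CPM in IQ3neg, for a log2 difference of 0.67 with an SE of 0.635 (adjusted p = 0.543 by limma), and IQ3pos_1909A lay between the IQ3neg libraries. Its TMM-scaled difference was −0.072. Some exon bases of Psmb7 (11.8%) are shared with Nek6 on the other strand, and 12.1% of those of Psmb5 with a microRNA gene on the same strand, and as the strand setting is not given in the sources used here, such reads cannot be assigned.

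**Figure D2:**
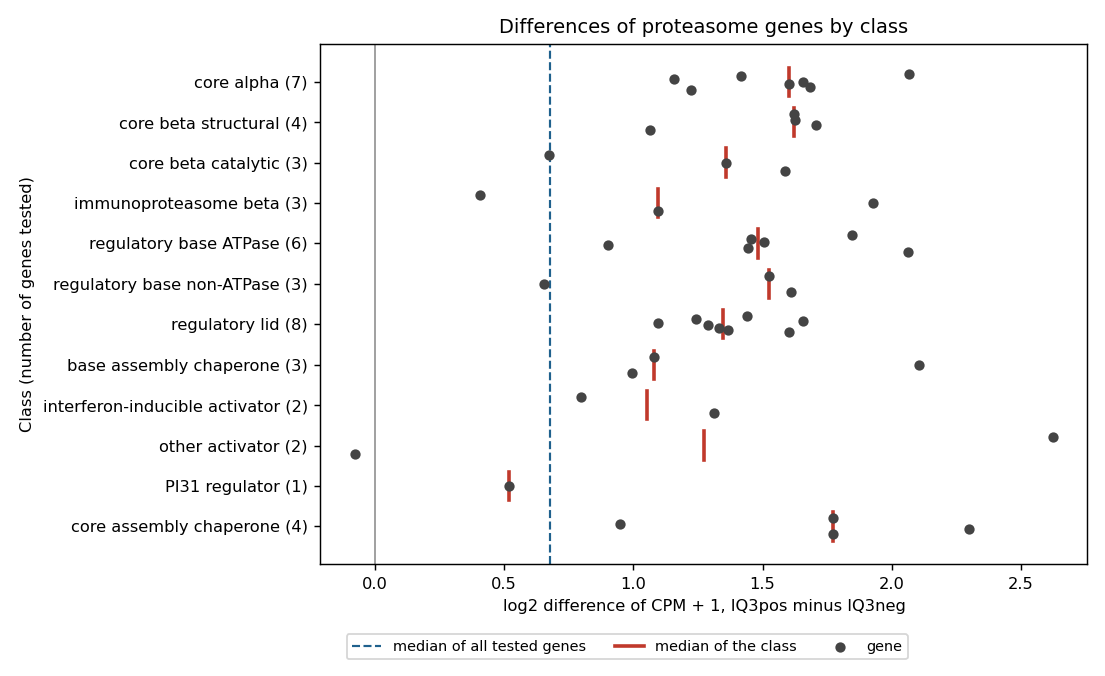
Log2 difference of CPM + 1, IQ3pos minus IQ3neg, for each tested gene (points) by class, with the class median (red bar) and the median of all tested genes (blue dashed line, 0.68). Core alpha, structural beta, base ATPase, lid, chaperone and interferon-inducible activator genes lie to the right of the blue line without exception. Psme3 lies farthest right at 2.62, and Psme4 alone lies left of 0.

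Of the 3 immunoproteasome genes, Psmb8 and Psmb9 were low (means of 9.78 and 11.7 CPM), and Psmb10 (36.4 CPM) was near Psmb5 (40.8 CPM). After TMM scaling the fractions overlapped for all 3 of them. Psmb8 (LMP7), the inducible counterpart of Psmb5, stood at 6.31 and 16.1 CPM in IQ3pos, against 4.26 and 12.5 CPM in IQ3neg, for a log2 difference of 0.41 with an SE of 0.9396 (adjusted p = 0.814 by limma), and the values interleaved, with both libraries from 4 mice above both libraries from 3 mice. After TMM scaling its difference was −0.27. An antisense gene covers 14.7% of its exon bases, so its reads are uncertain. Psmb9 (LMP2), the counterpart of Psmb6, stood at 10.99 and 24.8 CPM in IQ3pos, against 0.904 and 10.2 CPM in IQ3neg, for a log2 difference of 1.93 with an SE of 1.14 (adjusted p = 0.373 by limma). IQ3neg_1909B was low there, the fractions overlapped after TMM scaling, and without IQ3neg_1909B the difference was 0.65. Psmb10 (MECL-1), the counterpart of Psmb7, stood at 35.8 and 64.2 CPM in IQ3pos, against 16.6 and 28.9 CPM in IQ3neg, for a log2 difference of 1.09 with an SE of 0.557 (adjusted p = 0.304 by limma), with no overlap in CPM and an overlap after TMM scaling. It was 0.68 without IQ3pos_1910A and 0.71 without IQ3neg_1909B.

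Leukocytes are known for high immunoproteasome levels, so their markers are set beside these genes. The 10 leukocyte markers summed to 284 and 57.5 CPM in IQ3pos, against 398 and 78.7 CPM in IQ3neg. Ptprc, which defines leukocytes, stood at 22.8 and 0.0824 CPM in IQ3pos, against 38.8 and 14.5 CPM in IQ3neg, and the T cell marker Cd3e at 0.0551 CPM or less in every library. Most of each sum came from Lyz2 (211 and 43.9 CPM in IQ3pos, against 298 and 53.2 CPM in IQ3neg). In both fractions Lyz2, and with it the marker sum, was higher in the library from 3 mice. In IQ3pos, Coro1a (0.0551 and 3.79 CPM) and, near 0, Itgam had the reverse order. Psmb8, Psmb9 and Psmb10 were each higher in the library from 4 mice in both fractions. The part of leukocytes in these values was not tested.

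Ratios within a library do not depend on its scaling, and none of those between immunoproteasome and standard subunits separated the fractions. They were taken on CPM per kb of merged exons. Psmb8 over Psmb5 was 0.062 and 0.0547 in IQ3pos, against 0.0472 and 0.09802 in IQ3neg, a log2 difference of −0.22 (exact permutation test, two-sided p = 1). Psmb9 over Psmb6 was 0.00826 and 0.0167 in IQ3pos, against 0.00169 and 0.0183 in IQ3neg, a log2 difference of 1.08 (exact permutation test, two-sided p = 1), and the order of the fractions turned without IQ3neg_1909B (−0.63). Psmb10 over Psmb7 was 0.846 and 1.09 in IQ3pos, against 1.02 and 1.77 in IQ3neg, a log2 difference of −0.49 (exact permutation test, two-sided p = 0.667). Per kb of merged exons, Psmb10 RNA was near that of Psmb7, and Psmb8 and Psmb9 were far below their partners in every library. These levels depend on the length used. Merged exons span 3421 bases for Psmb7 and 1705 for Psmb10, but their coding lengths are 831 and 819 bases. In CPM without a length, Psmb10 lay below Psmb7 in every library. For Psmb8 and Psmb5, merged exons span 3381 and 899 bases, against coding lengths of 828 and 792. The ratio of Psmb8 to Psmb5 is therefore lower on merged exons than on coding length. Summed, the 3 inducible over the 3 standard genes gave 0.0619 and 0.0934 in IQ3pos, against 0.0618 and 0.117 in IQ3neg, a log2 difference of −0.16 (exact permutation test, two-sided p = 1). With 2 libraries against 2, an exact test cannot go below 0.333, and the log2 ratio of Psmb9 over Psmb6 alone had an SD of 0.719 in IQ3pos and 2.43 in IQ3neg (n = 2 libraries each).

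**Figure D3:**
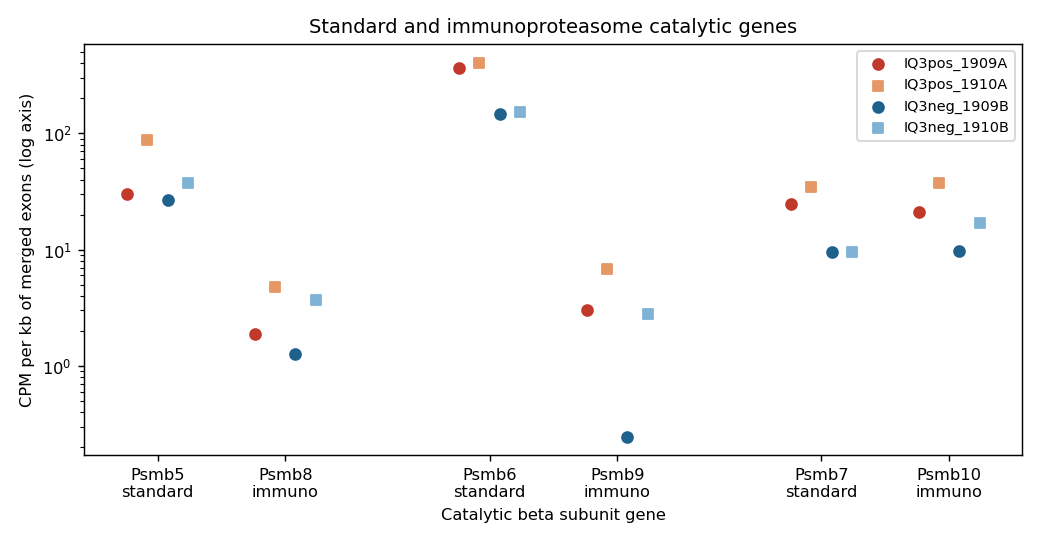
CPM per kb of merged exons (log axis) of the 3 standard catalytic genes, each beside its immunoproteasome counterpart, with 1 point per library and IQ3pos libraries to the left. On this length, Psmb6 is the highest in every library, Psmb8 and Psmb9 lie far below Psmb5 and Psmb6, and Psmb10 lies near Psmb7.

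The core genes known from other tissues were at or near 0. Psma8, an alpha subunit gene of the testis, had 3 reads in IQ3pos_1909A (0.0331 CPM, 95% exact Poisson interval 0.00682 to 0.0966) and 0 in the other libraries, where a floor of 3 reads allows up to 0.0107, 0.0261 and 0.00717 CPM in IQ3pos_1910A, IQ3neg_1909B and IQ3neg_1910B. Psmb11, the beta subunit gene of the thymus, had 2 and 4 reads in IQ3pos, against 439 and 0 reads in IQ3neg. Its level of 3.82 CPM in IQ3neg_1909B (3.47 to 4.19) was that of a single library. Psmb5 and Psmb11 lie close together on chromosome 14, at chr14:54614119-54618022 and chr14:54621433-54629556. Such intervals cover counting error only, since the reads carry no molecular identifiers.

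The base and lid of the regulatory particle were higher in IQ3pos as well. Their 17 genes summed to 3406 and 4646 CPM in IQ3pos, against 1189 and 1791 CPM in IQ3neg, with a median log2 difference of 1.44, or 0.77 above all genes. In CPM 16 of 17 were higher in both IQ3pos libraries, against 40.9% of all genes, and 12 after TMM scaling, against 24.7%.

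The 6 ATPases form the ring that unfolds substrates, and all 6 were higher in both IQ3pos libraries in CPM (40.9% of all genes). After TMM scaling 5 of the 6 were, against 24.7% of all genes. Psmc6 stood at 162 and 269 CPM in IQ3pos, against 34.96 and 69.1 CPM in IQ3neg, for a log2 difference of 2.06 with an SE of 0.478 (adjusted p = 0.0903 by limma), the largest difference among them. Psmc4 had the smallest, 187 and 223 CPM in IQ3pos, against 103 and 115 CPM in IQ3neg, for a log2 difference of 0.90 with an SE of 0.3004 (adjusted p = 0.162 by limma). After TMM scaling Psmc4 was at 0.14 and its groups overlapped.

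Of the other base subunits, Psmd4, a ubiquitin receptor, stood at 259 and 298 CPM in IQ3pos, against 71.02 and 115 CPM in IQ3neg, for a log2 difference of 1.61 with an SE of 0.355 (adjusted p = 0.0819 by limma). Psmd2, a scaffold that docks ubiquitin-binding proteins, stood at 72.2 and 335 CPM in IQ3pos, against 69.4 and 140.2 CPM in IQ3neg, for a log2 difference of 0.66 with an SE of 0.781 (adjusted p = 0.633 by limma). IQ3pos_1910A was high and IQ3pos_1909A lay at the level of IQ3neg_1909B, so the Psmd2 groups overlapped, and its difference was −0.44 without IQ3pos_1910A. Psmd1, the other large scaffold, stood at 148 and 257 CPM in IQ3pos, against 40.5 and 110.5 CPM in IQ3neg, and its groups overlapped after TMM scaling. Its 3.47% exon overlap with Htr2b on the other strand leaves its reads slightly uncertain.

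In the lid, which holds a subunit that removes ubiquitin, all 8 genes were higher in both IQ3pos libraries in CPM (40.9% of all). Their differences lay between 1.09 and 1.66. After TMM scaling 6 of the 8 were higher in both, against 24.7% of all genes. Psmd7, partner of the deubiquitinase subunit in the lid, stood at 198 and 190.3 CPM in IQ3pos, against 43.9 and 84.2 CPM in IQ3neg, for a log2 difference of 1.66 with an SE of 0.414 (adjusted p = 0.103 by limma). Psmd14, the deubiquitinase itself, stood at 308 and 346 CPM in IQ3pos, against 96.1 and 119 CPM in IQ3neg and differed by 1.60. Psmd8 had the smallest difference, 119.7 and 109 CPM in IQ3pos, against 45.1 and 62.01 CPM in IQ3neg, for a log2 difference of 1.09 with an SE of 0.365 (adjusted p = 0.162 by limma). Psmd3, a lid subunit chosen here after its values were seen, stood at 16.1 and 13.4 CPM in IQ3pos, against 1.63 and 11.7 CPM in IQ3neg. IQ3neg_1909B was the low library, and the groups overlapped after TMM scaling.

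The proportion of regulatory particle to core did not separate the fractions beyond the spread of IQ3neg. Sums per kb of the 17 genes over those of the 14 standard core genes were 0.6202 and 0.702 in IQ3pos, against 0.618 and 0.719 in IQ3neg, a log2 difference of −0.014 (exact permutation test, two-sided p = 1). Medians per kb gave 0.769 and 0.68 in IQ3pos, against 0.457 and 0.741 in IQ3neg, a log2 difference of 0.31 (exact permutation test, two-sided p = 0.667), a value set by IQ3neg_1909B: without that library it was −0.035, and with coding length in place of exon length −0.048.

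Levels per kb spanned a wide range within the complex although its subunits are built in equal number. In the standard core, Psmb7 was lowest in every library (24.9 and 34.7 in IQ3pos and 9.597 and 9.55 in IQ3neg, in CPM per kb), and Psmb6 or Psmb2 was highest (363 and 416 in IQ3pos and 146 and 157 in IQ3neg). In the regulatory particle, Psmd3 was lowest (3.24 and 2.7 in IQ3pos and 0.329 and 2.35 in IQ3neg) and Psmc5 highest (162 and 284 in IQ3pos and 68.2 and 90.1 in IQ3neg). The SD of log2 CPM per kb over the 14 core genes was 1.08 and 0.942 in IQ3pos and 0.997 and 1.005 in IQ3neg. Over the 17 genes of the regulatory particle that SD was 1.45 and 1.47 in IQ3pos and 1.74 and 1.22 in IQ3neg, widest in IQ3neg_1909B. Merged exon length counts every annotated isoform, which lowers the level per kb of genes with long rare isoforms. Which genes are lowest and highest therefore depends on the length used. In CPM without a length, Psmb5 lay below Psmb7 in both IQ3pos libraries and in IQ3neg_1909B. Psmc2 lay above Psmc5 in every library in CPM, while Psmd3 was lowest of the 17 there too.

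Psme3 and Psme4 were the extremes of the whole list of differences. Psme3 (chr11:101316213-101323537), which encodes the nuclear activator PA28-gamma, had the largest log2 difference of all 46 genes. It stood at 45.01 and 52.5 CPM in IQ3pos, against 3.98 and 12.02 CPM in IQ3neg, for a log2 difference of 2.62 with an SE of 0.693 (adjusted p = 0.112 by limma), and its TMM-scaled values did not overlap either, with a difference of 1.92. Psme4 (chr11:30771726-30880361), which encodes PA200, an activator known from chromatin and the testis, was the single gene with a negative difference, which was smaller than its SE. It stood at 51.04 and 28.6 CPM in IQ3pos, against 51.7 and 31.5 CPM in IQ3neg, for a log2 difference of −0.077 with an SE of 0.525 (adjusted p = 0.939 by limma). In both fractions the library from 3 mice was the higher one, the groups interleaved, and the TMM-scaled difference was −0.82; without IQ3pos_1910A or without IQ3neg_1909B the CPM difference was 0.33 or 0.27.

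Psme1 and Psme2 encode the subunits of PA28, the interferon-inducible activator. Psme1 stood at 37.7 and 80.8 CPM in IQ3pos, against 28.2 and 34.8 CPM in IQ3neg, for a log2 difference of 0.80 with an SE of 0.527 (adjusted p = 0.425 by limma), with no overlap in CPM and an overlap after TMM scaling (0.049). Its difference was 0.26 without IQ3pos_1910A and 1.34 without IQ3pos_1909A. Psme2 stood at 256 and 241 CPM in IQ3pos, against 103 and 96.1 CPM in IQ3neg, for a log2 difference of 1.31 with an SE of 0.287 (adjusted p = 0.0807 by limma), with libraries of a fraction close together. A near copy, Psme2b, had 4.48 and 6.13 CPM in IQ3pos and 1.58 and 2.40 CPM in IQ3neg, and reads may have been split between these genes. The summed Psme1 and Psme2 level per kb over that of the standard core was 0.0825 and 0.0737 in IQ3pos, against 0.103 and 0.0803 in IQ3neg, a log2 difference of −0.22 (exact permutation test, two-sided p = 0.667). Psmf1, which encodes PI31, a protein known to inhibit the core in vitro, stood at 30.4 and 109 CPM in IQ3pos, against 28.3 and 56.4 CPM in IQ3neg, for a log2 difference of 0.52 with an SE of 0.724 (adjusted p = 0.688 by limma). IQ3pos_1910A was the high library of Psmf1, the groups overlapped, and the TMM-scaled difference was −0.23.

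The 7 assembly chaperones, which help build the rings and leave the finished particle, had a median difference of 1.77, or 1.09 above all genes. That median rested on IQ3neg_1909B: without that library it lay 0.44 above all genes, and in edgeR 0.38 above. Psmg1 and Psmg2 encode a pair that scaffolds the alpha ring. Psmg1 stood at 87.4 and 114 CPM in IQ3pos, against 26.97 and 29.9 CPM in IQ3neg, for a log2 difference of 1.77 with an SE of 0.395 (adjusted p = 0.0835 by limma), with a TMM-scaled difference of 1.02 and no overlap. Psmg2 stood at 34.3 and 62.1 CPM in IQ3pos, against 18.9 and 28.98 CPM in IQ3neg, for a log2 difference of 0.95 with an SE of 0.539 (adjusted p = 0.351 by limma), and its groups overlapped after TMM scaling. Without IQ3pos_1910A the Psmg2 difference was 0.53. The pair Psmg3 and Psmg4, which acts on the same ring, was low in IQ3neg_1909B. Psmg3 stood at 10.2 and 10.6 CPM in IQ3pos, against 0.0522 and 4.101 CPM in IQ3neg, for a log2 difference of 2.30 with an SE of 1.14 (adjusted p = 0.292 by limma), the IQ3neg_1909B value resting on 6 reads. Psmg4 stood at 21.6 and 12.5 CPM in IQ3pos, against 1.63 and 8.94 CPM in IQ3neg, for a log2 difference of 1.77 with an SE of 0.987 (adjusted p = 0.343 by limma). Without IQ3neg_1909B the differences were 1.16 for Psmg3 and 0.81 for Psmg4.

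Of the chaperones of the base, Psmd5 stood at 149 and 242 CPM in IQ3pos, against 80.7 and 98.7 CPM in IQ3neg, for a log2 difference of 1.08 with an SE of 0.372 (adjusted p = 0.172 by limma). Psmd9 stood at 20.02 and 14.6 CPM in IQ3pos, against 0.0869 and 15.2 CPM in IQ3neg, for a log2 difference of 2.11 with an SE of 1.42 (adjusted p = 0.435 by limma). It had 10 reads in IQ3neg_1909B and overlapped between fractions, and without that library its difference was 0.15. Reads of Psmd9 are uncertain, as 25.5% of its exon bases are shared with a long noncoding RNA gene on the other strand. Psmd10, or gankyrin, which is also known as an oncoprotein, stood at 45.3 and 154 CPM in IQ3pos, against 39.1 and 44.1 CPM in IQ3neg, for a log2 difference of 1.0 with an SE of 0.637 (adjusted p = 0.409 by limma), and IQ3pos_1909A was near the IQ3neg libraries. Without IQ3pos_1910A the Psmd10 difference was 0.12, and 1.87 without IQ3pos_1909A.

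The fractions were also compared within the libraries from 3 mice (IQ3pos_1909A and IQ3neg_1909B) and within those from 4 mice. IQ3pos was the higher fraction for 45 of 46 genes among the 3-mouse libraries, 44 among the 4-mouse libraries and 44 in both. How many of all tested genes were higher within these libraries was not counted, but the fitted difference was positive for 8725 of 13019. Of the 46, 39 lay above the median of all genes among the 3-mouse libraries and 41 among the 4-mouse libraries. The median log2 difference was 1.40 among the 3-mouse libraries, where that of all genes was 0.72, and 1.33 among the 4-mouse libraries, where it was 0.57. The scatter was wider among the 3-mouse libraries, from −0.017 to 4.27, than among the 4-mouse libraries, from −0.14 to 2.04. Psmd9 had the widest gap between the pools, at 4.27 and −0.062. The gap was large too for Psmd3 (2.7 and 0.19) and Psmg4 (3.10 and 0.44), and Psmd10 went the other way (0.21 and 1.78). In IQ3neg_1909B, 5 of the 46 genes were under 2 CPM (Psmb9, Psmd3, Psmd9, Psmg3 and Psmg4), against 0 of 46 in each of the other 3 libraries. Over all tested genes the share under 2 CPM was 28% and 23.6% in IQ3pos and 25.3% and 19.9% in IQ3neg. Across the 46 genes, transcript GC content had an r of 0.39 with the log2 difference of IQ3neg_1910B over IQ3neg_1909B. With that of IQ3pos over IQ3neg, r was −0.055. Over the 11432 tested genes with a GC value, the same correlations were 0.085 and −0.104. All 4 values only describe genes that share the same libraries.

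**Figure D4:**
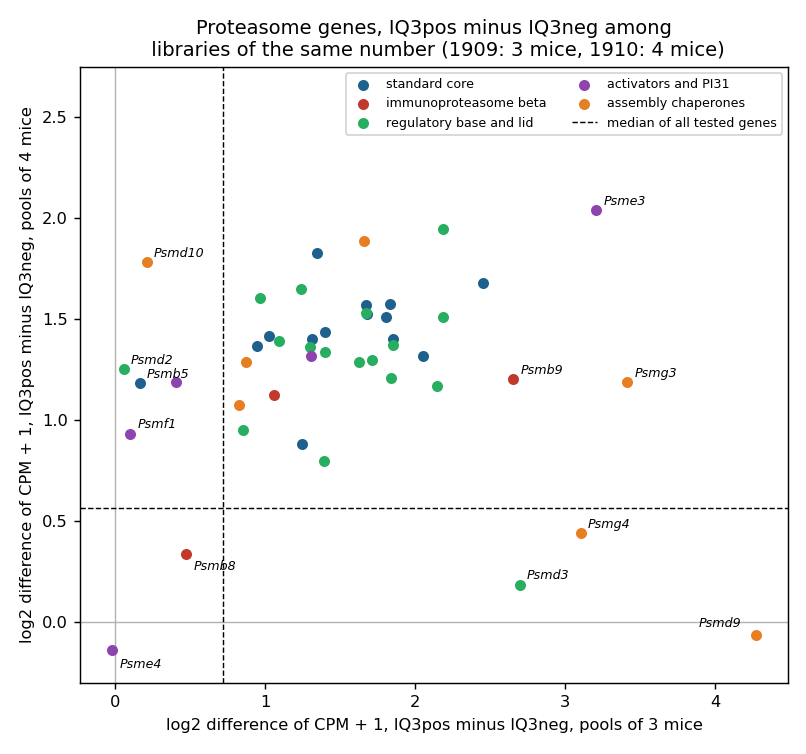
Log2 difference of CPM + 1, IQ3pos minus IQ3neg, of the 46 genes among the 3-mouse libraries (horizontal) and among the 4-mouse libraries (vertical), coloured by class, with dashed lines at the median of all tested genes (0.72 and 0.57). Of the 46 genes, 39 lie right of the vertical dashed line and 41 above the horizontal one. Psmd9, Psmg4 and Psmd3 lie far right and low, and Psme4 lies below 0 on both axes.

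Other components of the pathway had smaller median differences than the core. Of 12 listed subunits and factors outside the naming rule, 11 had a row, 9 were higher in both IQ3pos libraries in CPM (40.9% of all genes) and 5 after TMM scaling (24.7% of all), and their median lay 0.45 above all genes. Usp14, a deubiquitinase bound to the regulatory particle, led them at 156 and 199 CPM in IQ3pos, against 37.8 and 52.9 CPM in IQ3neg, for a log2 difference of 1.95 with an SE of 0.369 (adjusted p = 0.0686 by limma). Akirin2, known for the nuclear import of proteasomes, was lowest at 0.1102 and 14.7 CPM in IQ3pos, against 6.18 and 1.59 CPM in IQ3neg, with its extremes both in IQ3pos. For ubiquitin supply the median of 6 genes lay 0.18 above all genes. Of these, Rps27a, a ubiquitin and ribosomal fusion gene, was highest (130.4 and 154 CPM in IQ3pos, against 36.01 and 48.8 CPM in IQ3neg) and Uba6, a ubiquitin-activating enzyme, lowest (12.4 and 26.3 CPM in IQ3pos, against 16.2 and 18.8 CPM in IQ3neg). For the 10 ubiquitin shuttle and p97 genes the median lay 0.20 above. Among the shuttles, Ubqln4 was highest, at 20.8 and 8.702 CPM in IQ3pos, against 0.0435 and 7.81 CPM in IQ3neg, and Ubqln2 lowest, at 0.154 and 11.6 CPM in IQ3pos, against 15.3 and 7.15 CPM in IQ3neg, each with a library near 0. At an unadjusted p under 0.05, limma gave 7 of 11, 1 of 6 and 2 of 10 genes of these lists as higher and 0 as lower, and 0 at an adjusted p of 0.05. Over all genes those shares were 18.2% and 4.98%, and the counts of the ubiquitin supply and shuttle lists were near them. After TMM scaling, limma gave 2 of 11, 1 of 6 and 1 of 10 as higher and 0 as lower at that unadjusted p. The shares over all genes were then 7.63% and 8.32%.

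The listed regulators of subunit transcription spanned a wide range of differences. Nfe2l2, the factor of the antioxidant response, stood at 443 and 371 CPM in IQ3pos, against 52.1 and 79.1 CPM in IQ3neg, for a log2 difference of 2.64 with an SE of 0.342 (adjusted p = 0.0605 by limma), and its TMM-scaled difference was 1.88. The IQ3pos libraries lay far above the IQ3neg libraries. Nfe2l1, the factor known to induce subunit genes when proteasomes are inhibited, was lowest of the 7 listed regulators, at 8.003 and 8.89 CPM in IQ3pos, against 9.29 and 12.02 CPM in IQ3neg, for a log2 difference of −0.29 with an SE of 0.7497 (adjusted p = 0.8301 by limma), with both IQ3pos libraries just below both IQ3neg libraries. Over the list, limma gave 3 of 7 as higher and 0 as lower at an unadjusted p under 0.05 (18.2% and 4.98% of all genes), and 0 at an adjusted p of 0.05. After TMM scaling limma gave 1 and 0, against 7.63% and 8.32% of all genes.

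Genes of MHC class I presentation and the interferon response had a median difference near that of all genes. Of 10 listed, 9 were tested, with a median 0.12 below all genes. In CPM 2 were higher in both IQ3pos libraries and 1 was lower, against 40.9% and 14.2% of all genes. After TMM scaling 0 were higher and 4 lower, against 24.7% and 23% of all. Limma gave 0 as higher and 0 as lower at an unadjusted p under 0.05 in CPM, against 18.2% and 4.98% of all genes. After TMM scaling it gave 0 and 1, against 7.63% and 8.32% of all. Erap1, which trims peptides, was highest at 35.03 and 69.1 CPM in IQ3pos, against 9.76 and 34.6 CPM in IQ3neg, and Irf1, an interferon-response factor, lowest at 0.1102 and 11.9 CPM in IQ3pos, against 7.79 and 12.2 CPM in IQ3neg. Tap1, whose exons overlap those of Psmb9, stood at 0.0331 and 4.97 CPM in IQ3pos, against 2.33 and 2.698 CPM in IQ3neg.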

How the data were processed

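SMART-Seq2 libraries of sorted cells were compared as IQ3pos minus IQ3neg, with 2 libraries per fraction. The authors deposited CPM per gene symbol. The submitters' processing notes name STAR 2.7.1a, featureCounts, Subread 2.0.0, edgeR and GRCm38/mm10, with no role or order, and the sources used here do not give the strand setting. Each CPM column sums to 1000000 with no composition factor, and whole reads were recovered from its steps (100% of values within 0.05 of a whole read).

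The test planned for counts was replaced by limma-trend 3.58.1 (R 4.3.3) on log2(CPM + 1) for genes averaging 1 CPM or more, two-sided, Benjamini-Hochberg at 0.05 over all 13019 genes. On this scale, fold changes of low genes are understated. Alternatives were edgeR 4.0.16 and DESeq2 1.42.0 on recovered reads, changes of pseudocount, filter and scaling, leaving out 1 library, and a block for library number. Scripts were tested on simulated data. Lengths and coordinates are GENCODE vM21 (GRCm38).

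Members, classes and lists were chosen with earlier results of these data known. Named genes follow a rule: catalytic, immunoproteasome, tissue-specific, activator, PI31 and chaperone genes, the highest and lowest difference of each other class and of each pathway list, and any called gene; further names were chosen after their values were seen. Protein sequences were not used here. Figures were drawn with matplotlib.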

Additional observations from a re-analysis of the deposited data

How the results depend on the processing

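Counts of subunit genes called depended on the setting, and the cause was not tested. Called higher were 2 with a pseudocount of 5, 15 among genes averaging 5 CPM or more, and 26 with a replicate block (9.34% of all genes); the labels do not state that equal numbers pair the libraries, and the deviations of same-numbered libraries from their group means had an r of 0.148. DESeq2's Wald test on recovered reads called 0 higher, against 5.13% of its 20742 tested genes. It called 1 lower, against 9.95%: Psmb11, which has reads in IQ3neg_1909B almost alone. The number above in both IQ3pos libraries was 24 without the 20 most abundant genes. The number below was 1 with DESeq2 scaling, 1 without the 20 most abundant genes, and 0 to 1 with a library left out. Under the replicate block, IQ3pos was compared with IQ3neg within each library number, an easier rule, which gave 44 above and 1 below. The shares over all genes were not counted for these settings. Without a filter the median relative to all genes was 1.41 for all subunit genes, 1.58 for the core and 1.43 for the regulatory particle, as the comparison then takes in rows near 0. The core median was otherwise 1.07 (pseudocount 5), 0.73 (at least 5 CPM), 0.79 (TMM), 0.69 (TMM and at least 5 CPM, added after seeing the data), 0.79 (DESeq2 scaling), 0.78 (without the 20), 0.73 (edgeR), 0.79 (DESeq2) and 0.79 to 0.92 with a library left out. Of 420 values of 28 named genes under 15 settings, 371 kept direction and call, 19 became called and 30 changed sign, none of them a call. With TMM scaling, with either filter, Psmb5 was −0.072, Psmb8 −0.27, Psmf1 −0.23 and Psmd2 −0.10, and with DESeq2 scaling −0.11, −0.30, −0.27 and −0.14. Without the 20 genes these were −0.29, −0.49, −0.46 and −0.33, with Psme1 at −0.17, Psmg2 at −0.012 and Psmc4 at −0.082. With a library left out, Psmb5 ranged from −0.075 to 1.42, Psmf1 from −0.38 to 1.42 and Psmd2 from −0.44 to 1.75, lowest without IQ3pos_1910A, Psmb8 from −0.27 (without IQ3neg_1909B, and −0.21 without IQ3pos_1910A) to 1.09, and Psme4 from −0.48 to 0.33 (without IQ3pos_1910A, and 0.27 without IQ3neg_1909B). Psmb8 and Psmf1 were −0.38 and −0.084 in edgeR and −0.32 and −0.035 in DESeq2. With a library left out, Psmb8 over Psmb5 ranged from −0.75 to 0.30, Psmb9 over Psmb6 from −0.63 to 2.80, the summed ratio from −0.62 to 0.30 and regulatory particle over core from −0.035 to 0.66. Within a number (the replicate block of a ratio), Psmb8 over Psmb5 was 0.39 and the summed ratio 0.0014 in the 3-mouse libraries, and Psmb9 over Psmb6 was −0.13 and regulatory particle over core −0.12 in the 4-mouse libraries. The last was −0.048 with coding length and −0.014 with sums.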
